A study of Homo sapiens with 6 samples.

Results

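The genes described here code for the initiation and elongation factors of cytosolic translation, with 2 poly(A)-binding proteins, 2 inhibitors of the cap-binding protein and the kinase of elongation factor 2. They were chosen by name, 46 genes among the 48162 rows of the count table, and each symbol matched exactly 1 Ensembl identifier in GENCODE release 29. Of the 46, 45 passed the filter on low counts and were tested; the exception, EEF1G, was listed at 0 in every sample. They comprised 3 subunits of eIF2, 5 of eIF2B, 13 of eIF3, 11 genes of the eIF4 group, 6 other initiation factors (with eIF5A, which also acts in elongation, placed among them), 2 poly(A)-binding proteins and 6 elongation genes.

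The measurements came from SiHa, an established human cervical squamous carcinoma cell line that carries human papillomavirus. The cells received a small interfering RNA (siRNA), either si-CNN3#1, which targets the actin-binding protein calponin 3 (CNN3), or the control si-NC, whose target is not stated, with a change of medium at 24 h by the sample labels (the study's methods give an earlier change), and RNA was taken at 48 h. Each group, called si-CNN3 and si-NC below, had 3 samples. Both groups therefore carried a transfected duplex, a single siRNA against CNN3 was sequenced, and a single cell line was used.

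Initiation begins when eIF2, bound to GTP and the initiator tRNA, joins the small ribosomal subunit together with eIF1, eIF1A, eIF3 and eIF5. The mRNA is brought in through its cap by eIF4E, the scaffold eIF4G and the helicase eIF4A, while eIF4B and eIF4H assist the helicase, and poly(A)-binding protein links the tail to eIF4G. Phosphorylation of eIF2 turns it into an inhibitor of its exchange factor eIF2B, and 4E-BP proteins hold eIF4E away from eIF4G. eEF1A then delivers aminoacyl-tRNA to the ribosome, eEF1B recharges eEF1A with GTP, and eEF2 moves the ribosome along the mRNA. Many mRNAs of the ribosome and of the elongation factors begin with a C followed by a run of pyrimidines, the terminal oligopyrimidine (TOP) start, through which their translation is tied to mTOR signalling.

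Total counts per sample ran from 18147028 to 24976517, and the 3 si-NC libraries were the deepest. CNN3 itself had 1134, 1288 and 1234 counts in the si-NC samples and 490, 514 and 574 in the si-CNN3 samples, which is 50.9% of the control level. The epithelial genes KRT7, KRT8, KRT18 and CDH1 were present in all samples (at least 19.4 FPKM). KRT19 and EPCAM were low (6.11 to 7.34 and 4.9 to 6.75 FPKM), and KRT5 stayed at or below 0.501 FPKM. CDKN2A, which is not an epithelial marker, lay between 337 and 364 FPKM. Of the 10 markers of leukocytes, endothelium and fibroblasts that had a row, CD14 lay between 110 and 140 FPKM and the others at or below 4.11 FPKM. All 6 samples entered 1 comparison on TMM-scaled counts, made with the quasi-likelihood test of edgeR, and p values were adjusted by Benjamini-Hochberg over all 15860 tested genes, with a threshold of 0.05. A level in CPM is the count scaled to a common total, and a level in FPKM is also divided by gene length, so genes are set against each other only in FPKM.

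The 46 genes took between 2.24% and 2.28% of all counts in the si-NC samples and between 2.17% and 2.20% in the si-CNN3 samples. Most of this came from a pair of elongation factors. EEF1A1, which codes for the main form of eEF1A, stood at 4968 ± 144 FPKM (SD, n = 3) in si-NC cells, rank 5 of all genes. EEF2, the translocase, stood at 4794 ± 60.2 FPKM (SD, n = 3), rank 6. Together they held 52.2% to 53.5% of the counts of the 46 genes with si-NC and 50.7% to 51.3% with si-CNN3, and the groups did not overlap.

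PABPC1, the major cytosolic poly(A)-binding protein, followed at 874 ± 10.2 FPKM, and EIF4G2, a relative of eIF4G without the eIF4E-binding region, at 729 ± 13.1 FPKM (SD, n = 3 each, si-NC). EIF4H was at 470 ± 1.65 FPKM, EIF4B at 463 ± 3.27, EIF5A at 413 ± 5.31 and EIF4A2 at 389 ± 3.79 (SD, n = 3 each). The cap-binding protein EIF4E was far lower, at 45.2 ± 1.33 FPKM, close to its inhibitors EIF4EBP2 at 42.1 ± 0.860 and EIF4EBP1 at 37.7 ± 4.02 FPKM (SD, n = 3 each). Along this order the si-NC samples of EIF4A2 overlapped those of EEF1D, those of EIF3E overlapped EIF1, and those of EIF3F, EIF4G3, EIF2S1 and EIF3M overlapped each with the next. The same held for EIF3K and EIF2S2, for PABPC4 and EIF3J, for EIF2B1, EIF6 and EIF2B3, for EIF4EBP1 and EIF4E2, and for EIF2B4 and EIF4A1. All 5 eIF2B subunits, which form the exchange factor, lay low, between 15.3 FPKM (EIF2B4) and 55.3 FPKM (EIF2B5) in si-NC cells, against 74.9 FPKM (EIF2S1) to 338 FPKM (EIF2S3) for their substrate eIF2.

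**Figure D1:**
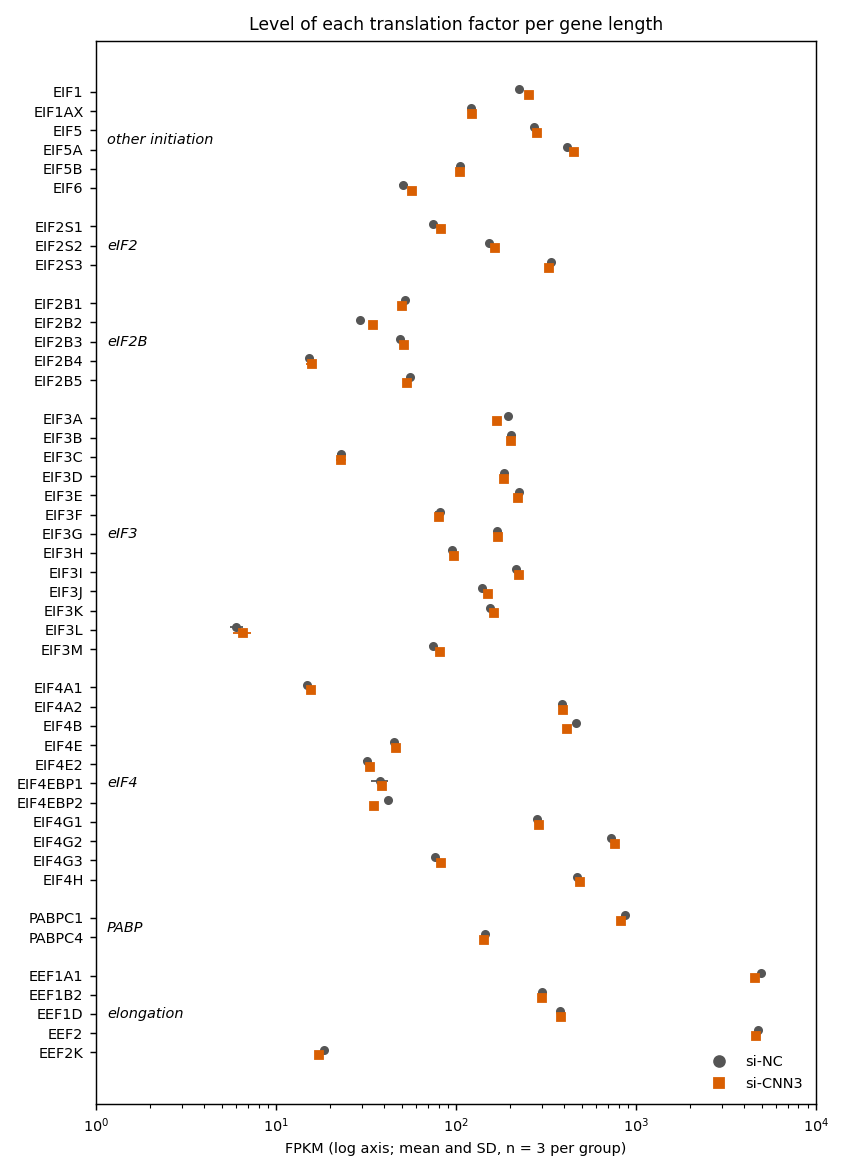
Level of 45 translation factors in FPKM on a log axis, as the mean and SD of 3 si-NC samples (circles) and 3 si-CNN3 samples (squares), grouped by complex; EEF1G, listed at 0, cannot be drawn. EEF1A1 and EEF2 stand far above the rest, at 4968 and 4794 FPKM with si-NC, EIF3L is lowest at about 6.02 FPKM with si-NC, and within each gene the groups lie close together.

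Some levels were far below those of their partners, and the annotation gives what else lies at these loci. Of the exon bases of EEF1G (ENSG00000254772, chromosome 11, 62559601 to 62574086 of GRCh38, minus strand), which codes for the gamma subunit of eEF1B, 99.9% also belong to exons of AP002990.1, a gene on the same strand. EEF1G had 0 counts in all 6 samples, a limit of 3 counts or 0.165 CPM in the shallowest sample, and AP002990.1 had 16 to 36. The other subunits of eEF1B were well covered, EEF1B2 at 300 ± 2.07 and EEF1D at 378 ± 8.62 FPKM (SD, n = 3 each, si-NC).

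EIF4A1, which codes for the main helicase of the eIF4F complex, had 227 to 298 counts per sample and 14.8 ± 0.160 FPKM in si-NC cells, against 389 FPKM for its paralog EIF4A2. Of its exon bases, 41.1% lie also in AC016876.2 and 29.8% in SENP3-EIF4A1, both on the same strand; AC016876.2 had at most 3 counts and SENP3-EIF4A1 has no row in the table used here. Within eIF3, whose subunits form 1 complex, 11 of the 13 genes lay between 74.7 FPKM (EIF3M) and 225 FPKM (EIF3E) in si-NC cells, but EIF3C was at 22.9 ± 1.13 and EIF3L at 6.02 ± 0.496 FPKM (SD, n = 3 each). EIF3C has the close copy EIF3CL, with 4 to 29 counts, and 41.1% of the exon bases of EIF3L lie in AL022311.1 on the same strand, a gene with no row. How reads shared by such genes were counted is not given in the sources used here, so the levels of EEF1G, EIF4A1, EIF3C and EIF3L are uncertain, and the part of the overlaps in them was not tested. EEF1A1 has 38 named pseudogenes with rows, which together held 0.199% to 0.241% of the counts of EEF1A1 and these copies. Reads that match several places may have been dropped or shared, which was not tested.

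Of the 45 genes tested, 8 rose and 6 fell with si-CNN3, and all of these changes were small, from -0.28 (EIF4EBP2) to 0.21 (EIF2B2) on the log2 scale. Among all tested genes 13.3% passed the threshold, 6.17% as higher and 7.14% as lower, whereas 31.1% of these 45 did, 17.8% higher and 13.3% lower. The translation factors are abundant, and the share that passed was higher among abundant genes. Of the 1074 tested genes with a mean count at or above that of the median translation factor (3783.8), a cutoff set after the values were seen, 31.0% passed, as did 10 of the 23 translation factors at or above it (43.5%). The median log2 fold change of the 45 genes was 0.013 and that of all tested genes 0.0023; their median absolute log2 fold change was 0.049, against 0.088 for all tested genes. In 23 of the 45 the samples of 1 group lay above all of the other, and 28.2% of all tested genes showed this. So did 522 of the 1074 abundant genes and 15 of the 23 translation factors at or above the same cutoff. With 3 samples against 3 an exact two-sided permutation test on a single gene cannot give less than p = 0.1, so the calls rest on the fit across all genes. RNA-seq on pooled cells cannot tell less RNA per cell from fewer cells expressing a gene.

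**Figure D2:**
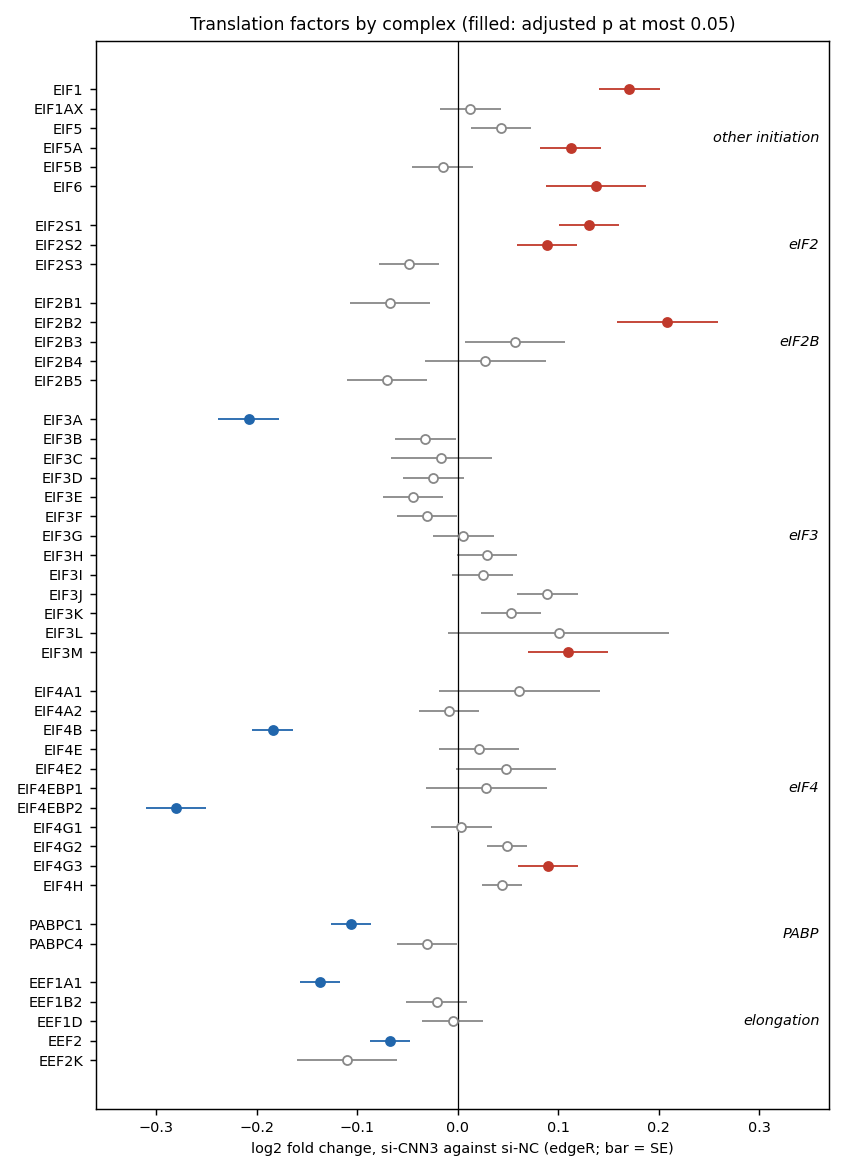
Log2 fold change of si-CNN3 against si-NC for the 45 tested translation factors, grouped by complex, with the standard error as a bar; filled points passed the adjusted p threshold of 0.05, red higher and blue lower. The 6 lower genes are EIF3A, EIF4B, EIF4EBP2, PABPC1, EEF1A1 and EEF2, and the 5 tested elongation genes lie below 0, EEF1D only just (-0.01), with its sign changing under total counts and some other alternatives.

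EIF4EBP2, which codes for 4E-BP2, an inhibitor that competes with eIF4G for eIF4E, fell most (ENSG00000148730, chromosome 10, 70404379 to 70428618 of GRCh38, plus strand). It had 6098, 7805 and 6594 counts in the si-NC samples and 4951, 4964 and 4361 in the si-CNN3 samples. Its normalized level was 308 ± 5.13 CPM with si-NC and 253 ± 12.7 CPM with si-CNN3 (SD, n = 3 each), or 82.3% of control (log2 fold change -0.28, with a standard error, SE, of 0.03, adjusted p = 4.19e-11, edgeR's quasi-likelihood test). The groups were well apart, 239 to 263 CPM with si-CNN3 and 304 to 314 with si-NC, and the gene ranked 77 by p value among the 15860.

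The target of this inhibitor did not pass: EIF4E had 1620, 1926 and 1778 counts with si-NC and 1539, 1584 and 1455 with si-CNN3 (log2 fold change 0.02, SE 0.04), and its groups overlapped in CPM. The related inhibitor EIF4EBP1, a gene often raised by the stress factor ATF4, did not pass either (0.03, SE 0.06). The FPKM of EIF4EBP2 divided by that of EIF4E was 0.913, 0.983 and 0.900 in the si-NC samples and 0.781, 0.760 and 0.727 in the si-CNN3 samples. With EIF4EBP1 added to EIF4EBP2 the ratio ran from 1.74 to 1.78 with si-NC and from 1.56 to 1.61 with si-CNN3. Both ratios were lower in every si-CNN3 sample than in every si-NC sample. Since EIF4E and EIF4EBP1 were near control, the ratios restate the fall of EIF4EBP2 and are not a separate finding. They are ratios of mRNA levels, and protein or phosphorylation was not measured here.

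EIF4B (ENSG00000063046, chromosome 12, 53006158 to 53042209, plus strand), which codes for an RNA-binding cofactor of the eIF4A helicase, fell to 88.0% of control. It had 12000, 14866 and 12759 counts with si-NC and 10000, 10087 and 9435 with si-CNN3, or 596 ± 3.60 and 524 ± 6.87 CPM (SD, n = 3 each). The gap between the groups was several times the spread within either (log2 fold change -0.18, SE 0.02, adjusted p = 7.34e-08, edgeR's quasi-likelihood test). The antisense gene AC068888.1, which shares 11.9% of the exon bases of EIF4B, had 172 to 244 counts. EIF4H, which codes for a shorter cofactor with a similar role, did not pass (0.04, SE 0.02, adjusted p = 0.268, edgeR).

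Among the scaffolds, EIF4G3 rose to 106% of control. It had 4104, 5098 and 4329 counts with si-NC and 4094, 4208 and 3889 with si-CNN3, which in CPM placed all si-CNN3 samples (213 to 219) above all si-NC samples (201 to 205). This call held in 9 of 16 alternatives (log2 fold change 0.09, SE 0.03, adjusted p = 0.0229, edgeR's quasi-likelihood test), and the adjusted p was 0.0627 without si-CNN3 replicate 1, 0.0899 without si-CNN3 replicate 2, 0.0503 without si-NC replicate 1 and 0.116 without si-NC replicate 3. EIF4G1, the main scaffold, had a log2 fold change of 0.00 (SE 0.03) at 764 ± 14.8 CPM with si-NC and 766 ± 20.5 with si-CNN3 (SD, n = 3 each). EIF4G2 had 0.05 (SE 0.02, adjusted p = 0.191), the helicases EIF4A2 -0.01 (SE 0.03) and EIF4A1 0.06 (SE 0.08), and the cap-binding relative EIF4E2 0.05 (SE 0.05); none of these passed.

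PABPC1 fell to 92.9% of control. It had 16346, 20523 and 17889 counts with si-NC and 14312, 14938 and 13811 with si-CNN3, or 823 ± 7.43 and 764 ± 11.7 CPM (SD, n = 3 each). The groups did not overlap, since the highest si-CNN3 sample (778 CPM) lay below the lowest si-NC sample (815 CPM; log2 fold change -0.11, SE 0.02, adjusted p = 0.00118, edgeR's quasi-likelihood test). PABPC4, the inducible form, had -0.03 (SE 0.03, adjusted p = 0.575) at 172 ± 1.60 and 168 ± 1.53 CPM (SD, n = 3 each). Its groups did not overlap either, but by a margin that the test did not call.

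Among the 13 subunits of eIF3, which binds the small ribosomal subunit, 1 fell and 1 rose. EIF3A (ENSG00000107581, chromosome 10, 119033670 to 119080823, minus strand), which codes for its largest subunit, had 11731, 14148 and 12578 counts with si-NC and 9343, 9825 and 9044 with si-CNN3. In CPM this was 579 ± 8.98 against 501 ± 9.34 (SD, n = 3 each), or 86.6% of control, with no overlap (log2 fold change -0.21, SE 0.03, adjusted p = 4.98e-09, edgeR's quasi-likelihood test).

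EIF3M rose to 108% of control. It had 1991, 2364 and 2267 counts with si-NC and 1994, 2031 and 2029 with si-CNN3 (log2 fold change 0.11, SE 0.04, adjusted p = 0.0320, edgeR's quasi-likelihood test). All si-CNN3 samples were above all si-NC samples, but by little, with 106 CPM against 105. The call was lost without si-CNN3 replicate 3 (adjusted p = 0.173), without si-NC replicate 1 (0.0832) and without si-NC replicate 2 (0.283), and it held in 8 of 16 alternatives. EIF3J, a loosely bound subunit, was next by p value, with 0.09 (SE 0.03, adjusted p = 0.0575). The other 10 subunits lay between -0.04 (EIF3E) and 0.10 (EIF3L, on 124 to 152 counts), and none passed. The median over the 13 subunits was 0.0056.

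Of the 3 subunits of eIF2, 2 rose. EIF2S1 codes for the alpha subunit, which the stress kinases phosphorylate. It had 2438, 3064 and 2634 counts with si-NC and 2466, 2552 and 2517 with si-CNN3, or 122 ± 0.800 and 134 ± 3.63 CPM (SD, n = 3 each). The si-CNN3 samples were all higher, at 109% of control (log2 fold change 0.13, SE 0.03, adjusted p = 0.00256, edgeR's quasi-likelihood test).

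EIF2S2, the beta subunit, had 8126, 10142 and 8909 counts with si-NC and 8385, 8123 and 7958 with si-CNN3 (0.09, SE 0.03, adjusted p = 0.0133, edgeR). Its samples did not overlap (405 to 413 against 423 to 445 CPM), and the call was lost without si-CNN3 replicate 1 (adjusted p = 0.10) or si-NC replicate 1 (0.0624). EIF2S3, the gamma subunit that binds GTP and tRNA, went the other way without passing, at 379 ± 1.21 CPM with si-NC and 366 ± 8.17 with si-CNN3 (SD, n = 3 each; -0.05, SE 0.03, adjusted p = 0.240, edgeR).

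In eIF2B, EIF2B2 (ENSG00000119718, chromosome 14, 75002911 to 75012366, plus strand) rose, and its increase was the largest of the 45 genes. It codes for the beta subunit of the regulatory core. It had 580, 699 and 603 counts with si-NC and 635, 627 and 580 with si-CNN3, or 28.3 ± 0.518 and 32.7 ± 0.956 CPM (SD, n = 3 each), at 116% of control. The groups did not overlap (0.21, SE 0.05, adjusted p = 0.00536, edgeR's quasi-likelihood test), but DESeq2 gave an adjusted p of 0.0660. The other 4 subunits did not pass: EIF2B3 and EIF2B4 had 0.06 and 0.03, and EIF2B1 and EIF2B5, the latter coding for the catalytic subunit, had -0.07 each (SE 0.04 each). For EIF2B1 and EIF2B5 the groups did not overlap.

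EIF1 (ENSG00000173812, chromosome 17, 41688885 to 41692668, plus strand), which codes for the factor that holds the scanning ribosome open until a start codon is found, rose most of the 6 genes in this class. It had 5954, 7507 and 6332 counts with si-NC and 6304, 6555 and 5997 with si-CNN3. In CPM this was 297 ± 4.06 against 335 ± 6.45 (SD, n = 3 each), or 113% of control, with no overlap (0.17, SE 0.03, adjusted p = 1.89e-06, edgeR's quasi-likelihood test). EIF5, which codes for the activator of eIF2's GTPase and acts against eIF1 at the start codon, had 0.04 (SE 0.03, adjusted p = 0.322), and its samples did not overlap (328 to 331 against 334 to 348 CPM).

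EIF5A, whose protein carries the modified lysine hypusine and helps the ribosome through proline stretches, rose to 108% of control. It had 9412, 11444 and 9830 counts with si-NC and 9528, 9247 and 9307 with si-CNN3, or 462 ± 6.88 and 499 ± 15.2 CPM (SD, n = 3 each; 0.11, SE 0.03, adjusted p = 0.00137, edgeR). EIF6, which keeps the ribosomal subunits apart, had 862, 1115 and 1032 counts with si-NC and 960, 911 and 930 with si-CNN3. It passed narrowly (0.14, SE 0.05, adjusted p = 0.0451, edgeR) and is the only gene of the 14 whose groups overlapped in CPM. Its adjusted p was 0.168 without si-CNN3 replicate 1, 0.159 without si-CNN3 replicate 3, 0.227 without si-NC replicate 1, 0.124 without si-NC replicate 2 and 0.215 with DESeq2, and it passed in 8 of 16 alternatives. Of the exon bases of EIF6, 17.4% lie also in AL121753.1 on the same strand, a gene with 5 to 16 counts. The part of this overlap in the level of EIF6 was not tested. EIF1AX had 0.01 and EIF5B, the subunit-joining GTPase, -0.02 (SE 0.03 each), and neither passed.

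Of the 5 tested elongation genes, 2 fell. All 5 had log2 fold changes below 0, as did 49.3% of all tested genes and 59.2% of the abundant ones above, but EEF1D was near 0 and lay above it under total counts (0.01) and some other alternatives. EEF1A1 (ENSG00000156508, chromosome 6, 73515750 to 73523797, minus strand) had 164032, 193554 and 166406 counts with si-NC and 136801, 138579 and 128571 with si-CNN3. Its level was 7888 ± 250.5 CPM with si-NC and 7171 ± 114 CPM with si-CNN3 (SD, n = 3 each), or 90.9% of control, with the highest si-CNN3 sample at 7255 CPM and the lowest si-NC sample at 7714 (log2 fold change -0.14, SE 0.02, adjusted p = 1.37e-05, edgeR's quasi-likelihood test). The si-NC samples spread more than the si-CNN3 samples, with replicate 1 the highest at 8175 CPM.

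EEF2 (ENSG00000167658, chromosome 19, 3976056 to 3985469, minus strand) had 83635, 104281 and 88520 counts with si-NC and 76037, 76099 and 71107 with si-CNN3, or 4154 ± 44.8 and 3963 ± 69.0 CPM (SD, n = 3 each). The groups did not overlap, and the decrease, to 95.4% of control, was the smallest of the 14 (-0.07, SE 0.02, adjusted p = 0.0386, edgeR). The call did not hold in 5 of the 6 fits without 1 sample (adjusted p from 0.0509 to 0.138, the largest without si-CNN3 replicate 3), under upper quartile scaling (0.057) or under total counts (0.0993). It held without si-CNN3 replicate 1 and in 5 of 16 alternatives in all. EEF2K, which codes for the kinase that inhibits eEF2, had 815, 1028 and 863 counts with si-NC and 727, 704 and 690 with si-CNN3, with all si-CNN3 samples lower (-0.11, SE 0.05), but did not pass (adjusted p = 0.144). The exchange factor genes EEF1B2 (-0.02) and EEF1D (-0.01; SE 0.03 each) did not pass.

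**Figure D3:**
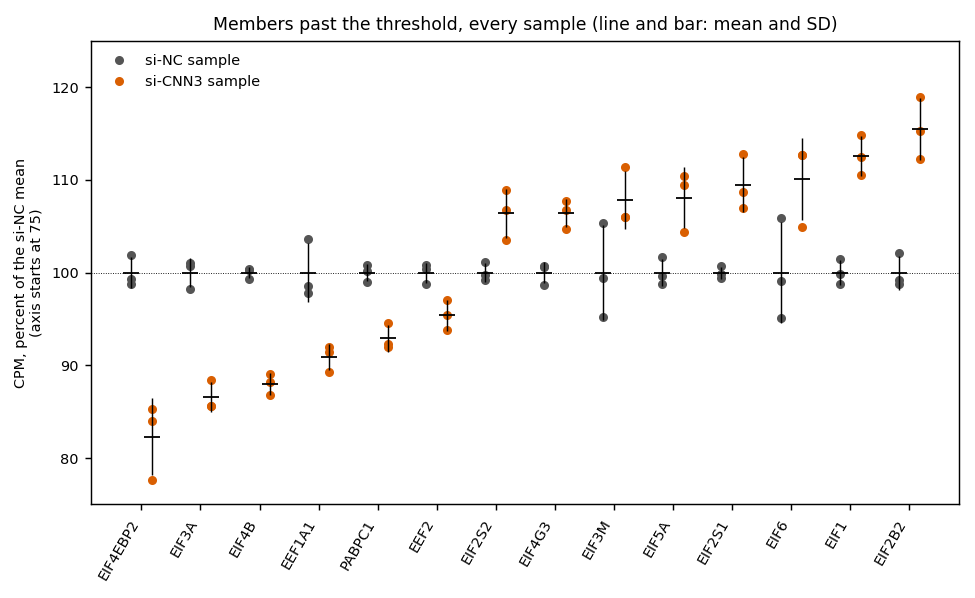
CPM of the 14 genes past the threshold as percent of each gene's si-NC mean, with 1 point per sample (grey si-NC, orange si-CNN3), the mean and the SD, on an axis that starts at 75. EIF4EBP2 is lowest, at 82.3% in the fit, EIF2B2 is highest, at 116%, and EIF6 is the only one of the 14 whose groups overlap.

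RefSeq promoter windows (GRCh38.p14) were available for 36 of the 46 genes, 35 of them tested. A start was taken as TOP-like when the first listed base is C and at least 4 more C or T follow, on the transcribed strand. Of the 35 tested genes, 10 had such a start (28.6%), against 751 of 10535 other tested genes with a window (7.13%), where 1 window of a gene is enough. Counted by window, it was 10 of 50, against 5.03% of the 15288 windows of other tested genes and 4.07% of all 35116 windows. The 10 are shown because 3 of the 4 genes that fell and have a window are among them, while 1 of the 7 that rose is. All 6 translation factors that fell are also among the 23 with a mean count at or above the median translation factor. Each line gives 10 bases before and 20 bases from the listed start on, 5′ to 3′, with the pyrimidine run from the start in capitals.
EEF1A1, chr6:73521013-73521042, minus strand: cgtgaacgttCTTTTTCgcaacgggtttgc
EEF2, chr19:3985444-3985473, minus strand: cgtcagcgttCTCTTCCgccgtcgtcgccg
EIF4B, chr12:53006446-53006475, plus strand: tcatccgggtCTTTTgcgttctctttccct
EEF1B2, chr2:206159885-206159914, plus strand: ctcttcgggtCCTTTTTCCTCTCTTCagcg
EIF2S3, chrX:24054946-24054975, plus strand: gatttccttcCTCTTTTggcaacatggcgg
EIF3D, chr22:36529147-36529176, minus strand: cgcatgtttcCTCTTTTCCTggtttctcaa
EIF3F, chr11:7987327-7987356, plus strand: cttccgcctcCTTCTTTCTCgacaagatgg
EIF3K, chr19:38619178-38619207, plus strand: tttccaccacCTCTTCCTgttcccgtcctt
EIF3M, chr11:32583821-32583850, plus strand: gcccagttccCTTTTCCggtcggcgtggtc
EIF4A2, chr3:186783567-186783596, plus strand: gcgccgctgtCTTTTCagtcgggcgctgag

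EIF4EBP2, which fell, and EIF1, EIF2S1 and EIF2B2, which rose, have no such start and are shown for contrast as 4 of the 7 changed genes without one. The first base listed for each of these 4 is a purine. EIF4G3, which also rose and is not shown, has a listed start that opens with C, with a pyrimidine run of 1 base.
EIF4EBP2, chr10:70404135-70404164, plus strand: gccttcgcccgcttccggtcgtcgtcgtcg
EIF1, chr17:41688875-41688904, plus strand: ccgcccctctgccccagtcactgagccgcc
EIF2S1, chr14:67360318-67360347, plus strand: gaggttccgcatgcgcggtggagtgagcga
EIF2B2, chr14:75002911-75002940, plus strand: cgcccgccccggaagtgcaaactgtgtggt

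Of the 10 genes with the start, EIF4B, EEF1A1 and EEF2 fell, EIF3M rose, and 8 had a log2 fold change below 0, from -0.18 (EIF4B) to 0.11 (EIF3M), with a median of -0.027. Of the 25 without it, EIF4EBP2 fell, 6 rose, and 7 lay below 0, with a median of 0.043. Over the other tested genes the medians were -0.0009 with the start and 0.0023 without it, 9.72% of those with it and 8.11% of those without it were lower, 7.46% and 6.89% were higher, and 50.3% and 49.1% lay below 0. The difference between the classes was seen after the values were known and was not tested. The classes were not matched for abundance. Of the 1074 abundant tested genes above, 20.6% were lower, 10.4% were higher and 59.2% lay below 0. The part of abundance in the difference was not tested. It also depends on the definition: when the run may begin up to 5 bases before or after the listed start, 19 of the 35 genes have one (54.3%, against 28.8% of the other tested genes), EIF4EBP2 and EIF1 among them. Of these 19, 4 fell, 2 rose and 11 lay below 0, with a median of -0.016, and the other 16 had a median of 0.036. The windows of EIF3A, PABPC1 and EIF2S2, which changed, and of EEF1D, EIF3E, EIF3G, EIF3H, EIF3L, EIF4EBP1 and PABPC4 were not used here. EEF1B2, with the longest run of the 10 and a further listed start without one, was near control (-0.02, SE 0.03).

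**Figure D4:**
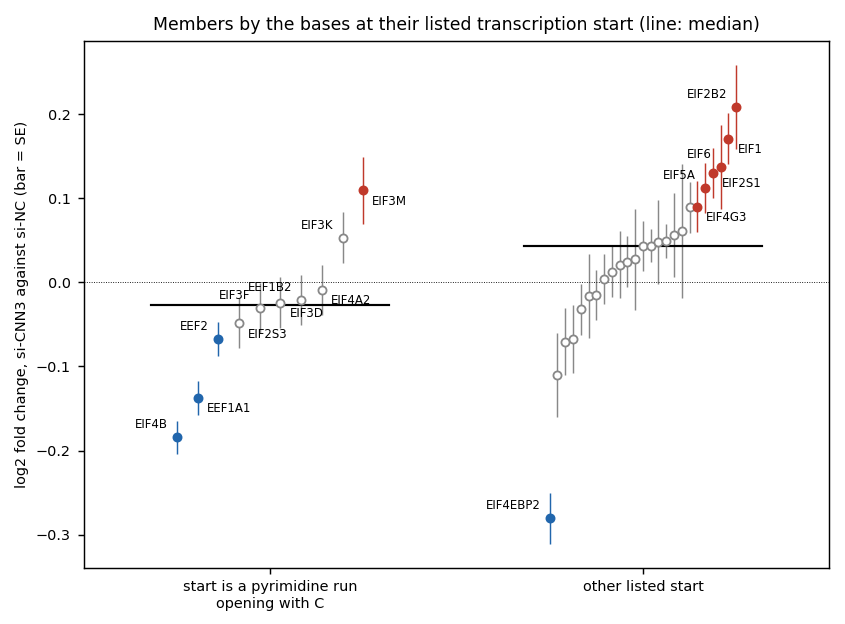
Log2 fold change, with the standard error, of the 35 tested translation factors that have a RefSeq promoter window, for the 10 whose listed start is a pyrimidine run opening with C (left) and the 25 others (right); filled points passed the threshold, and the lines mark the medians. EIF4B, EEF1A1 and EEF2 are the lowest on the left, at -0.18, -0.14 and -0.07, and EIF4EBP2 is the lowest on the right, at -0.28.

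An siRNA can lower other mRNAs that pair with bases 2 to 8 of its guide strand, the seed, which was taken here as part of the reverse complement of the 19 paired bases of the sense strand. The guides are printed because they define the groups, with the seed in capitals.
si-CNN3#1 guide: uUUGUUGGuucccaucugc
si-NC guide: aCGUGACAcguucggagaa

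The 7-base match to the si-CNN3#1 seed, CCAACAA on the mRNA strand, occurs in an annotated 3′ UTR of 3 of the 45 tested genes (6.67%), EIF4EBP2, EIF4H and EIF5B, against 10.4% of 12599 other tested genes with a 3′ UTR. The match in EIF4EBP2, the gene that fell most, lies in the 3′ UTR of its only protein-coding transcript, which is 6871 bases long.
EIF4EBP2 site: tcaacctaCCAACAActgcctgg
EIF4H site: tggggcttCCAACAAaaaccaga
EIF5B site: gtaatatcCCAACAAaaatcaga
EIF4EBP2 fell, with a log2 fold change of -0.28, while EIF4H and EIF5B, which hold the same letters, had 0.04 and -0.02 and did not pass. The other 5 genes that fell, EIF3A, EIF4B, PABPC1, EEF1A1 and EEF2, hold no match in an annotated 3′ UTR. Only this 7-base match in 3′ UTRs was searched, and the shares were not matched for 3′ UTR length. The match to the si-NC seed, TGTCACG, occurs in 3 of the 45 (6.67%), EIF4G3 (1 of 5 transcripts), EIF2B4 (1 of 4) and EEF2K (its only one), against 3.47% of the other genes. Of these EIF4G3 rose. A match is a description of the letters, and its part in any change was not tested.

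A list of 69 further genes, for regulators, paralogs, termination, modification and mitochondrial factors, held 65 that were tested, and 5 rose and 5 fell (7.69% each, against 6.17% and 7.14% of all genes). The median log2 fold change was 0.014. PAIP1, which codes for a partner that joins poly(A)-binding protein to eIF4A, rose most clearly, from 212 ± 1.74 to 253 ± 4.20 CPM (SD, n = 3 each; 0.25, SE 0.03, adjusted p = 2.74e-10, edgeR's quasi-likelihood test). PABPC1 itself fell in the same samples, as given above.

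LARP4, which binds poly(A)-binding protein and mRNA tails, rose (0.22, SE 0.03, adjusted p = 1.46e-06), and so did EIF5A2, the paralog of EIF5A (0.32, SE 0.07, adjusted p = 0.00039, on 349 to 518 counts; both edgeR). The subunits that direct phosphatase to eIF2 alpha went apart: PPP1R15A, the stress-induced form also called GADD34, rose from 51.8 ± 1.97 to 63.8 ± 0.949 CPM, and PPP1R15B, the constitutive form, fell from 97.0 ± 3.33 to 87.1 ± 2.62 CPM (SD, n = 3 each). Their log2 fold changes were 0.30 (SE 0.04, adjusted p = 2.83e-07) and -0.16 (SE 0.04, adjusted p = 0.00123, edgeR). The call held in all 16 alternatives for PPP1R15A and in 13 of 16 for PPP1R15B.

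Of the 4 kinases of eIF2 alpha, 1 passed: EIF2AK1, the heme-regulated kinase, fell (-0.11, SE 0.03, adjusted p = 0.00434), and GCN1, the ribosome-bound activator of the kinase GCN2, fell as well (-0.11, SE 0.03, adjusted p = 0.00181, edgeR). EIF4A3, the helicase of the exon junction complex (-0.10), and MKNK2, a kinase of eIF4E (-0.08; SE 0.03 each), fell with an adjusted p of 0.0398 and 0.0396, and EEF1A2, the paralog of EEF1A1, rose with 0.12 (SE 0.04, adjusted p = 0.0391, edgeR). The calls of these 3 were each lost when certain single samples were left out, with an adjusted p of up to 0.258 for EIF4A3 (without si-CNN3 replicate 2), 0.20 for MKNK2 (without si-NC replicate 1) and 0.431 for EEF1A2 (without si-CNN3 replicate 1). None of the 8 mitochondrial factors of the list, among them TUFM and TSFM, passed in edgeR's quasi-likelihood test with TMM scaling, where 2 had an unadjusted p under 0.05. The nearest was MTIF2, the mitochondrial initiation factor (0.14, SE 0.05, adjusted p = 0.0559), named after its values were seen. It passed in 5 of 16 alternatives, namely edgeR with upper quartile scaling, total counts or the replicate block, and both limma fits at a mean of at least 1 FPKM. With DESeq2 0 passed (1 unadjusted).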

How the data were processed

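RNA was sequenced from 3 samples per group. Clean reads were aligned by the authors with TopHat2 (2.0.9, with Bowtie2 2.0.6, per the submitters' processing notes), who deposited raw counts per Ensembl gene; HTSeq is named among the tools. Build, annotation, strand and multi-match settings are not given in the sources used here. The authors also deposited FPKM values, used for levels between genes and in limma.

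Names, positions and overlaps (GRCh38) came from GENCODE release 29, which named 45342 of the identifiers and left 2820 without a name. Counts were fitted with edgeR 4.0.16 in R 4.3.3 (TMM, filterByExpr, glmQLFit and glmQLFTest, condition only). The tests were also run on simulated data in which all genes shared the same spread, taken from the main fit. That run does not measure the error of the calls on the real data. Each SE is the size of the log2 fold change over √F. Alternatives were other scalings, DESeq2 1.42.0, other filters, a replicate block, each sample left out, and limma (3.58.1) on log2 FPKM after adding 1 or 0.1, a scale that understates the change of low genes.

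The genes and lists were chosen with earlier results of these data known. Counts per sample are given for each of the 46 genes past the threshold and for the most abundant ones, the other pathway genes past it are named, and the rest are given by range. The study describes the replicates as independent assays. Their spread was small, with a common biological coefficient of variation of 0.0232 in the main fit. Between samples of the same group, chi-square per degree of freedom ran from 1.52 to 1.9. The small adjusted p values and the calls of small changes rest on this spread, whose source was not tested. The limit for a count of 0 covers counting error only.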

Additional observations from a re-analysis of the deposited data

How the results depend on the processing

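Of the 14 translation factors that passed, all kept their direction in the 16 alternatives, and EIF1, EIF2S1, EIF3A, EIF4B and EIF4EBP2 passed in each. EIF3J and EIF4G2 did not pass but did so in at least 1 alternative. Over all genes 2111 passed, against 1073 with DESeq2, 1363 with limma on log2(FPKM + 1) and 1353 with log2(FPKM + 0.1) at a mean of at least 1 FPKM, 585 with limma without that filter, and 1551 to 1747 without 1 sample. Of the translation factors, 8 rose, against 4 with DESeq2, 5 without a filter on low counts, 3 with unfiltered limma and 4 to 8 without 1 sample, the fewest without si-NC replicate 1; without si-CNN3 replicate 1 it was 5. The 6 that fell became 3 with unfiltered limma and 5 to 6 without 1 sample. Of the other pathway genes, 5 rose, against 8 under total counts, 3 with unfiltered limma and 4 to 5 without 1 sample. The 5 that fell became 3 under upper quartile scaling, total counts or DESeq2, 2 in both filtered limma fits, 0 in unfiltered limma (3 at an unadjusted p under 0.05) and 3 to 5 without 1 sample (3 without si-CNN3 replicate 2, si-NC replicate 1 or si-NC replicate 2). CNN3 stayed between -1.06 and -0.92 without 1 sample. The cause of these differences was not tested. With the replicate number as a block, 2727 genes passed, and of the translation factors 10 rose and 6 fell. The correlations of same-numbered samples' deviations were 0.0591, 0.121 and 0.0921 (every other pair was below 0). Not all exceeded 0.1, the limit used here, so the main fit has no block. This does not exclude that same-numbered samples were paired. With pyrimidine runs allowed within 5 bases of the listed start, an alternative chosen after seeing the data, 19 translation factors had a TOP-like start in place of 10, and 4 of them fell in place of 3. Depth limits EIF3L and EIF4A1, with standard errors of 0.11 and 0.08.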
